A study of Mus musculus with 9 samples.

Results

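The glucose and lactate metabolism genes examined here are 38 genes that carry glucose to lactate, into the mitochondrion or into side branches: glucose and lactate transporters, the enzymes of glycolysis, the kinases that tune them, pyruvate dehydrogenase with its inhibitory kinases, and enzymes of the pentose phosphate and glycogen branches. The genes were listed by name, with earlier results of these data known. Counts among them, set beside the share of all genes, therefore describe the list and do not test it. On the arrays 35 of the 38 were measured, out of 18194 genes in all. Gpi1, Eno1 and G6pdx had no probe set annotated to them alone and were not analysed here. A gene was read from probe sets annotated to its symbol alone, and where there were several, from the one with the highest mean over the 9 arrays.

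Retinal cells of mice on a C57BL/6J-129/Ola background were sorted by fluorescence into 3 groups. RhoGFP-positive and rhoGFP-negative cells came from retinae of rhoEGFP reporter mice at postnatal day 4, whose reporter is named for rhodopsin, the rod opsin. NestinGFP-positive cells came from retinae of pNestin-GFP mice at postnatal day 0, whose reporter is named for nestin, an intermediate filament gene of neural progenitors. Each group had 3 arrays, and each array held a pool from 6 to 8 mice. The pools limit the comparison to the spread between pools, the rhoGFP-negative fraction is whatever the sort left and not 1 cell type, and the nestinGFP-positive group differs from both others in age and reporter line as well as in the cells sorted, which cannot be told apart. Rod markers were high in the rhoGFP-positive group: 10 of 11 measured rod genes were called higher in rhoGFP-positive than in rhoGFP-negative cells and 11 of 11 against nestinGFP-positive cells, among them Pde6b, a subunit of the rod phosphodiesterase (3.35 ± 0.40 (SE) and 4.93 ± 0.40 (SE) on the log2 scale). The rod genes Nrl and Crx differed less between the day 4 groups. Their log2 means were 13.65 and 12.71 in rhoGFP-positive, 12.58 and 12.00 in rhoGFP-negative and 11.11 and 10.64 in nestinGFP-positive arrays. Nes itself, the gene that names the reporter of the third group, did not separate nestinGFP-positive from rhoGFP-negative cells (a log2 difference of 0.0012, limma adjusted p = 0.998), and 10 of 11 progenitor genes were called lower in rhoGFP-positive cells against either group.

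Glycolysis splits glucose into pyruvate. In most tissues pyruvate then enters the mitochondrion through pyruvate dehydrogenase, while in the retina, and in photoreceptors above all, a large share becomes lactate even when oxygen is at hand. Several steps can be run by alternative enzymes encoded by different genes, and which of them a cell uses is known to differ between dividing progenitors and mature neurons. The comparisons below therefore ask which transporter, which enzyme and which kinase gene was higher or lower in rhoGFP-positive cells than in the other retinal cells of the same age and in the younger nestin-reporter cells.

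All levels are log2 values on a normalised scale, so that a difference of 1 is 2-fold. Different probe sets differ in how brightly they report the same amount of RNA, so a level is compared only with the level of the same gene in another group. A difference was called where limma's adjusted p was below 0.05 and the log2 difference was at least 1 in size. Unless a block is named, the p-values are from a fit that leaves out the replicate numbers, although same-numbered day 4 arrays deviated together. In bulk RNA fewer cells of a type and less RNA per cell cannot be told apart.

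In rhoGFP-positive against rhoGFP-negative cells 3 of the 35 measured genes were called higher (Hk1, Aldoc and Eno2), where 3.61% of all 18194 genes were. Another 10 were called lower (Slc2a3, Hk2, Pfkp, Tpi1, Pfkfb3, Pgk1, Slc16a1, Slc16a3, Pdk1 and Gbe1), where 7.32% of all genes were. The median log2 difference over the 35 genes was -0.29, and that over all genes was 0.0094. The arrays of both groups did not overlap for 25 of the 35 genes, while over all genes 17.9% lay wholly above and 20.3% wholly below. The genes called higher and lower were spread over the whole route from glucose uptake to pyruvate oxidation rather than lying at one end of it.

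**Figure D1:**
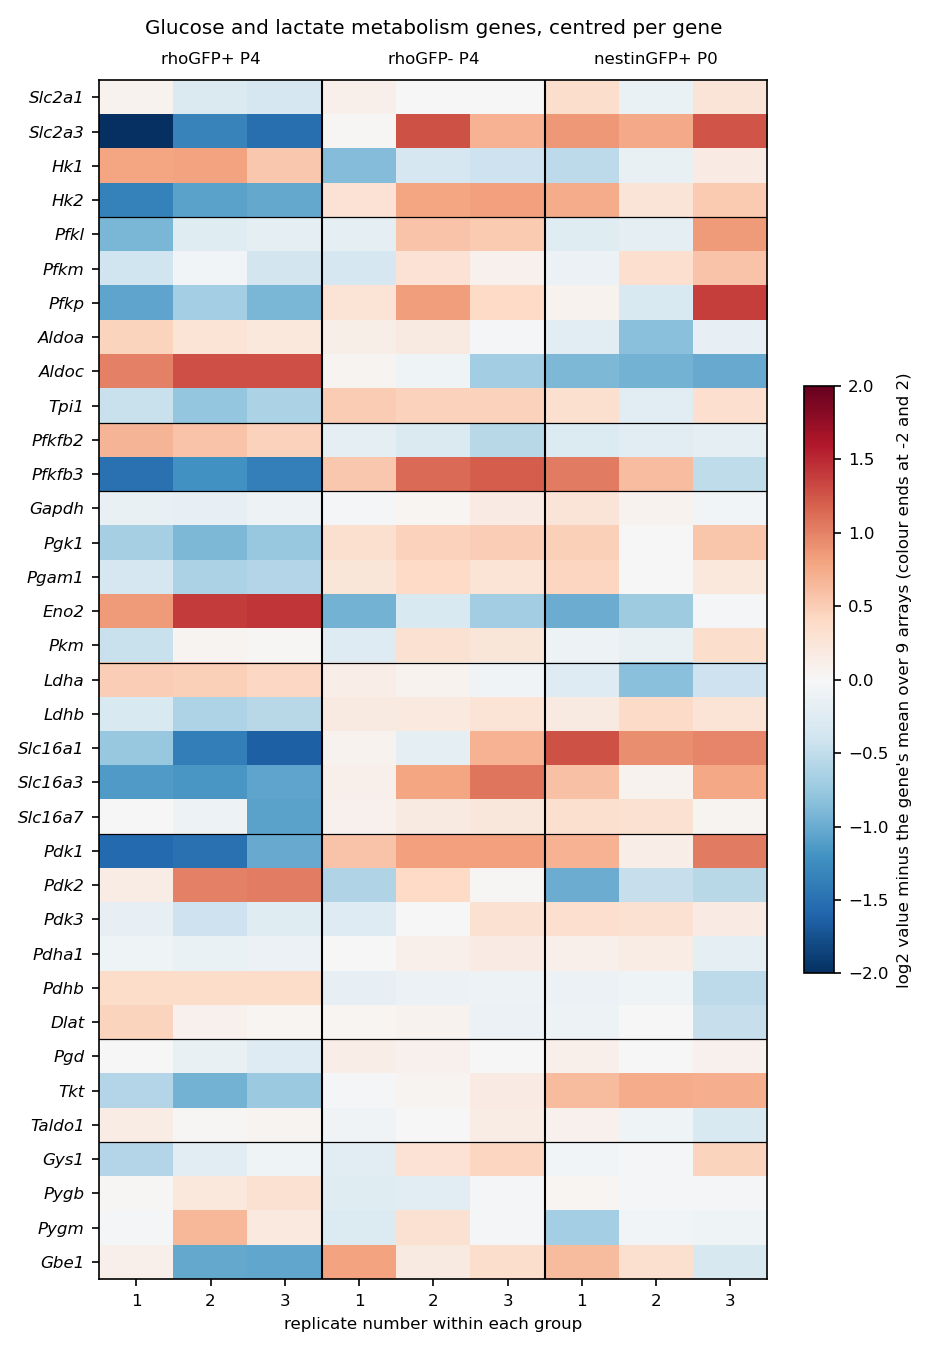
Colour map of the 35 measured genes, in order of their step, over the 9 arrays in 3 groups; colour gives the log2 value minus the gene's own mean over the 9 arrays, from -2 to 2. Hk1, Aldoc and Eno2 are highest on the 3 rhoGFP-positive arrays, and Slc2a3, Hk2, Pfkfb3, Slc16a3 and Pdk1 lowest there.

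Several of the genes are textbook targets of hypoxia-inducible factor, whose binding element has ACGTG at its core, and the stretch around the transcription start is shown for 5 of them to let that core be seen: 3 called lower (Hk2, Pgk1 and Slc16a3), 1 called higher (Aldoc) and Ldha, which was not called. Sequences are from RefSeq on GRCm38.p6, from 250 bases before to 50 after the start, 5′ to 3′ on the gene's strand, with ACGTG and its reverse complement CACGT in capitals. Where both overlap as CACGTG, all 6 letters are in capitals. The windows are chr6:82774405-82774704, minus strand for Hk2, chrX:106186850-106187149, plus strand for Pgk1, chr11:120948817-120949116, plus strand for Slc16a3, chr11:78322823-78323122, plus strand for Aldoc and chr7:46845554-46845853, plus strand for Ldha.
Hk2: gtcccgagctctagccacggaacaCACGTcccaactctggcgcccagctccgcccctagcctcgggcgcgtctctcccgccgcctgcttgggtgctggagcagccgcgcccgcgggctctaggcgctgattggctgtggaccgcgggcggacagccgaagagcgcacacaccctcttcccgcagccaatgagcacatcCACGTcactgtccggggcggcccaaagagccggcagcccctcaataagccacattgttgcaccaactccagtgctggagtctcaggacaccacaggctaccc
Pgk1: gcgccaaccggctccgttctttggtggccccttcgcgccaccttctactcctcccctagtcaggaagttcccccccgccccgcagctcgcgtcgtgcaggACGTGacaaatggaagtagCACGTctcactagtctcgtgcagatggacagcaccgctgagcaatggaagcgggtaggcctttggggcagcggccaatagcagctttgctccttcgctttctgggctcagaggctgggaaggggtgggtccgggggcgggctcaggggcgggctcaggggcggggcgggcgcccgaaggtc
Slc16a3: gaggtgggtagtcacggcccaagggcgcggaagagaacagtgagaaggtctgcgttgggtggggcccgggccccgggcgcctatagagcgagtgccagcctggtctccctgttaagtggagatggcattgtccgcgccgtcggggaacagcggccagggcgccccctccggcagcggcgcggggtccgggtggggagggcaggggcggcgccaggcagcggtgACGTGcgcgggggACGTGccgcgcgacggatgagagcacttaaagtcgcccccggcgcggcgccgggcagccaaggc
Aldoc: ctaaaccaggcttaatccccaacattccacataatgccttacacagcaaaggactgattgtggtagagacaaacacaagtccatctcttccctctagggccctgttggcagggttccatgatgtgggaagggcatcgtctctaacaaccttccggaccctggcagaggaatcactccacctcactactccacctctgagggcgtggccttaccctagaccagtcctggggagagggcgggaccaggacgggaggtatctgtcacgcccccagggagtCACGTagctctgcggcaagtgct
Ldha: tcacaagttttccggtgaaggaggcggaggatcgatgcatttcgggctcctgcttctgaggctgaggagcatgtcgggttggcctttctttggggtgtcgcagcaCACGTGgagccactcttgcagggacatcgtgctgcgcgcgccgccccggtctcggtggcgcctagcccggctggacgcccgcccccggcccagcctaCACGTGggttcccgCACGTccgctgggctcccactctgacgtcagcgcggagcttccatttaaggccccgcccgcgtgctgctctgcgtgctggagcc

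Of the 38 genes 36 were in the RefSeq table, with 53 start windows between them. The core was in 25 of the 53 windows (47.2%) and in 19.6% of the 32851 windows of all genes. The windows of the 36 genes were also richer in G and C, at 60.0% against 53.8%. By gene it was in 5 of 9 called lower, 2 of 3 called higher and 13 of 21 not called in rhoGFP-positive against rhoGFP-negative cells. The letter strings of 2 photoreceptor factors were searched in the same way on both strands. TAATCC (reverse GGATTA), the core bound by CRX, was in 4 of 53 windows (7.55%, against 7.06% of all), one of them the Aldoc window above. TGCTGA (reverse TCAGCA), the core of the element bound by NRL, was in 6 of 53 (11.3%, against 19.5% of all). These matches describe the letters in the windows only.

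The first steps take glucose across the membrane and trap it as glucose 6-phosphate. Of the 4 genes for them, 1 was called higher (Hk1), 2 lower (Slc2a3 and Hk2) and Slc2a1 was not called in rhoGFP-positive against rhoGFP-negative cells. Hk1 encodes the hexokinase of adult brain and other steady users of glucose, which sits on mitochondria. Its level was 10.79, 10.82 and 10.55 in the 3 rhoGFP-positive arrays, 9.15, 9.67 and 9.60 in the rhoGFP-negative and 9.48, 9.86 and 10.18 in the nestinGFP-positive ones. All 3 rhoGFP-positive arrays stood above all 6 others. The log2 difference was 1.25 ± 0.19 (SE) against rhoGFP-negative cells, 2.38-fold (limma adjusted p = 0.00114). Against nestinGFP-positive cells it was 0.88 ± 0.19 (SE) (limma adjusted p = 0.00555), under the 2-fold minimum; without nestinGFP-positive replicate 3 it was 1.05 and was called.

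Hk2 encodes the inducible hexokinase of muscle, embryonic and tumour cells. Its level was 6.92, 7.20 and 7.25 in rhoGFP-positive, 8.55, 9.06 and 9.09 in rhoGFP-negative and 9.01, 8.52 and 8.78 in nestinGFP-positive arrays. The rhoGFP-positive arrays lay below all others with a gap of over 1 log2 unit, while the other groups overlapped. The difference was -1.78 ± 0.18 (SE) against rhoGFP-negative cells, 3.43-fold lower (limma adjusted p = 8.10e-05), and -1.65 ± 0.18 (SE) against nestinGFP-positive cells (limma adjusted p = 7.82e-05). Hk1 and Hk2 thus went opposite ways, and the log2 ratio of Hk1 to Hk2 shifted up by 3.03 against rhoGFP-negative cells, 8.15-fold.

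Slc2a1 encodes GLUT1, the glucose carrier of photoreceptors, pigment epithelium and vessels. It was at 11.66 to 12.06 in rhoGFP-positive, 11.98 to 12.10 in rhoGFP-negative and 11.86 to 12.34 in nestinGFP-positive arrays, ranges that overlapped. Its difference of -0.21 ± 0.15 (SE) did not pass the test (limma adjusted p = 0.395), and the 95% interval of -0.56 to 0.13 lay within 2-fold. Slc2a3 encodes GLUT3, the carrier of neurons. Its brightest probe set gave 6.74, 7.45 and 7.28 in rhoGFP-positive, 8.81, 10.06 and 9.48 in rhoGFP-negative and 9.65, 9.53 and 10.03 in nestinGFP-positive arrays, with the rhoGFP-positive arrays below all others. The difference was -2.29 ± 0.30 (SE) (4.91-fold lower, limma adjusted p = 0.000384) and -2.58 ± 0.30 (SE) against nestinGFP-positive cells (limma adjusted p = 0.000112). That probe set ends in _s_at, and such sets, like those ending in _x_at, may also match other transcripts. A second set ending in _x_at also fell, by 1.87 on the log2 scale. The other 2 sets had means over the 9 arrays of 4.24 and 3.47, near the bottom of the scale, and differences of -0.14 and -0.22, so the call for Slc2a3 was lost without the _x_at and _s_at sets (limma adjusted p = 0.384).

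The upper part of glycolysis commits sugar phosphate and splits it. Of its 6 measured genes, 1 was called higher (Aldoc), 2 lower (Pfkp and Tpi1), and Pfkl, Pfkm and Aldoa were not called against rhoGFP-negative cells. Phosphofructokinase, the main control point of the pathway, is built from subunits of 3 genes. Pfkp, the platelet-type subunit that is also made in brain, was at 8.57, 8.95 and 8.71 in rhoGFP-positive, 9.90, 10.46 and 10.03 in rhoGFP-negative and 9.70, 9.33 and 11.02 in nestinGFP-positive arrays. The rhoGFP-positive arrays lay below all others, and the nestinGFP-positive arrays spread over more than 1 log2 unit. The difference was -1.39 ± 0.37 (SE) (limma adjusted p = 0.0203) and -1.27 ± 0.37 (SE) against nestinGFP-positive cells (limma adjusted p = 0.0220). The first call was lost without rhoGFP-positive replicate 1 or 3 or rhoGFP-negative replicate 2 (limma adjusted p = 0.0621, 0.0577 and 0.0773). The second was lost without rhoGFP-positive replicate 1 or 3 (limma adjusted p = 0.0639 and 0.0577) and without nestinGFP-positive replicate 3, where the difference was -0.77. The 3 Pfkp probe sets ran from -1.39 to -0.23 against rhoGFP-negative cells, with 2 called lower. Against nestinGFP-positive cells they ran from -1.27 to -0.094, with 1 called lower. Pfkl and Pfkm, the liver- and muscle-type subunits, had differences of -0.74 ± 0.33 (SE) and -0.29 ± 0.21 (SE) against rhoGFP-negative cells and were not called (limma adjusted p = 0.144 and 0.406). The 3 Pfkl probe sets did not agree in sign, with differences from -0.74 to 0.44.

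Aldolase cleaves the sugar bisphosphate. Aldoc, the brain-type aldolase, was at 9.69, 9.98 and 9.97 in rhoGFP-positive, 8.74, 8.60 and 8.00 in rhoGFP-negative and 7.78, 7.75 and 7.68 in nestinGFP-positive arrays. Here all 3 groups stood apart, in the order rhoGFP-positive, rhoGFP-negative, nestinGFP-positive. The difference was 1.43 ± 0.18 (SE) (2.70-fold higher, limma adjusted p = 0.000321) and 2.14 ± 0.18 (SE) against nestinGFP-positive cells (4.42-fold, limma adjusted p = 1.70e-05). Its second probe set was dim, with a mean over the 9 arrays of 3.61 and a difference of 0.17 against rhoGFP-negative cells. Aldoa, the muscle-type and most widely made aldolase, differed by 0.22 ± 0.18 (SE) and 0.71 ± 0.18 (SE) and was not called (limma adjusted p = 0.449 and 0.0101). All 5 of its probe sets end in _x_at. Tpi1, which interconverts the triose phosphates, was at 11.70, 11.38 and 11.52 in rhoGFP-positive, 12.66, 12.62 and 12.61 in rhoGFP-negative and 12.47, 11.93 and 12.49 in nestinGFP-positive arrays. It fell by 1.10 on the log2 scale against rhoGFP-negative cells (limma adjusted p = 0.000711), close to the 2-fold minimum, and by cyclic loess normalisation the difference was -0.99. Against nestinGFP-positive cells it was -0.76 ± 0.16 (SE) (limma adjusted p = 0.00407) and was not called.

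Fructose 2,6-bisphosphate is the strongest activator of phosphofructokinase, and the bifunctional enzymes of the Pfkfb family make and remove it. Pfkfb3, whose product has the highest kinase activity of the family, was at 5.29, 5.57 and 5.41 in rhoGFP-positive, 7.32, 7.91 and 7.98 in rhoGFP-negative and 7.82, 7.39 and 6.27 in nestinGFP-positive arrays. The rhoGFP-positive arrays were the lowest, and 1 nestinGFP-positive array, replicate 3, came nearest to them. The difference of -2.32 ± 0.34 (SE) against rhoGFP-negative cells was the largest among the 35 genes (4.98-fold lower, limma adjusted p = 0.000807), and it was -1.74 ± 0.34 (SE) against nestinGFP-positive cells (limma adjusted p = 0.00298). Pfkfb2, the heart-type member, was at 9.45, 9.35 and 9.23 in rhoGFP-positive, 8.59, 8.48 and 8.22 in rhoGFP-negative and 8.49, 8.54 and 8.58 in nestinGFP-positive arrays, with the rhoGFP-positive arrays above all others. Its difference of 0.91 ± 0.12 (SE) passed limma's test (adjusted p = 0.000377) without reaching 2-fold. A second Pfkfb3 probe set had a mean of 4.27 and a difference of -0.029, and the other 3 Pfkfb2 sets, all dimmer, had differences from 0.077 to 0.48.

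The lower part of glycolysis yields ATP and pyruvate. Among its 5 measured genes Eno2 was called higher and Pgk1 lower in rhoGFP-positive against rhoGFP-negative cells. Eno2, the neuron-specific enolase, was at 10.38, 10.93 and 10.96 in rhoGFP-positive, 8.59, 9.24 and 8.85 in rhoGFP-negative and 8.54, 8.83 and 9.49 in nestinGFP-positive arrays. Its rhoGFP-positive arrays lay above all others, and the other groups overlapped. The difference was 1.87 ± 0.26 (SE) (3.65-fold higher, limma adjusted p = 0.000622) and 1.80 ± 0.26 (SE) against nestinGFP-positive cells (limma adjusted p = 0.000487).

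Pgk1, the first ATP-yielding enzyme of the pathway, was at 11.38, 11.14 and 11.28 in rhoGFP-positive, 12.36, 12.51 and 12.54 in rhoGFP-negative and 12.52, 12.05 and 12.59 in nestinGFP-positive arrays. The rhoGFP-positive arrays were the lowest. The difference was -1.21 ± 0.15 (SE) against rhoGFP-negative (limma adjusted p = 0.000276) and -1.12 ± 0.15 (SE) against nestinGFP-positive cells (limma adjusted p = 0.000259). Pgam1, the next enzyme, differed by -0.83 ± 0.13 (SE) and -0.74 ± 0.13 (SE), below 2-fold (limma adjusted p = 0.00125 and 0.00160). Gapdh, read from control probe sets of the array alone, differed by -0.19 ± 0.11 (SE), and Pkm, the pyruvate kinase gene, by -0.22 ± 0.20 (SE); neither passed the test (limma adjusted p = 0.275 and 0.520). Pkm has alternatively spliced M1 and M2 forms, which its 1 probe set was not used to separate.

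Pyruvate becomes lactate through lactate dehydrogenase, a tetramer of A and B subunits, and leaves the cell with a proton through monocarboxylate transporters. Ldha, the A subunit that favours lactate formation, was at 13.64, 13.62 and 13.57 in rhoGFP-positive, 13.28, 13.22 and 13.08 in rhoGFP-negative and 12.90, 12.32 and 12.75 in nestinGFP-positive arrays. The groups did not overlap and stood in that order. The differences of 0.41 ± 0.15 (SE) and 0.95 ± 0.15 (SE) were below 2-fold, with limma adjusted p of 0.0706 and 0.000656, so Ldha was not called in either comparison; without nestinGFP-positive replicate 1 the second difference was 1.08 and was called. Ldhb, the B subunit, went the other way at 10.69, 10.38 and 10.43 in rhoGFP-positive against 11.16, 11.18 and 11.26 in rhoGFP-negative and 11.16, 11.36 and 11.26 in nestinGFP-positive arrays. Its difference of -0.70 ± 0.11 (SE) passed limma's test (adjusted p = 0.00132) without reaching 2-fold, and its 4 probe sets ran from -0.72 to -0.66.

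Of the 3 monocarboxylate transporter genes 2 were called lower. Slc16a1 encodes MCT1, found on many cell types. It was at 7.00, 6.36 and 6.13 in rhoGFP-positive, 7.82, 7.57 and 8.44 in rhoGFP-negative and 9.02, 8.69 and 8.73 in nestinGFP-positive arrays, so all 3 groups stood apart. The difference was -1.45 ± 0.26 (SE) (limma adjusted p = 0.00264) and -2.32 ± 0.26 (SE) against nestinGFP-positive cells (limma adjusted p = 9.12e-05). Slc16a3 encodes MCT4, the low-affinity lactate exporter of strongly glycolytic cells. It was at 5.23, 5.20 and 5.32 in rhoGFP-positive, 6.48, 7.16 and 7.44 in rhoGFP-negative and 6.95, 6.44 and 7.14 in nestinGFP-positive arrays, with all rhoGFP-positive arrays below the rest. The difference was -1.77 ± 0.24 (SE) (3.42-fold lower, limma adjusted p = 0.000535) and -1.59 ± 0.24 (SE) against nestinGFP-positive cells (limma adjusted p = 0.000651). Slc16a7, for the high-affinity transporter MCT2, was dim in every group, with means of 4.50 ± 0.60 (SD, n = 3), 5.05 ± 0.070 and 5.10 ± 0.15 in rhoGFP-positive, rhoGFP-negative and nestinGFP-positive arrays. It differed by -0.55 ± 0.25 (SE) and was not called (limma adjusted p = 0.147). Leaving out rhoGFP-positive replicate 3 brought the difference to -0.21. Bsg, the partner that carries MCT1 and MCT4 to the membrane, differed by -0.12 ± 0.11 (SE) (limma adjusted p = 0.505), while Emb, embigin, a second such partner, was called lower at -1.73 ± 0.22 (SE) (limma adjusted p = 0.000328).

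Pyruvate dehydrogenase passes pyruvate to the citrate cycle, and the pyruvate dehydrogenase kinases, 3 of whose genes were on the list, switch it off. Pdk1, a kinase gene known as a target of hypoxia signalling, was at 6.81, 6.88 and 7.36 in rhoGFP-positive, 8.94, 9.19 and 9.19 in rhoGFP-negative and 9.06, 8.50 and 9.42 in nestinGFP-positive arrays. The rhoGFP-positive arrays lay over 1 log2 unit below all others. The difference was -2.09 ± 0.23 (SE) (4.25-fold lower, limma adjusted p = 0.000127) and -1.97 ± 0.23 (SE) against nestinGFP-positive cells (limma adjusted p = 0.000109), and 3 of its 4 probe sets were called lower in each comparison. Pdk2, the most widely made kinase of the family, was at 8.50, 9.36 and 9.37 in rhoGFP-positive, 7.75, 8.75 and 8.38 in rhoGFP-negative and 7.35, 7.88 and 7.79 in nestinGFP-positive arrays. The ranges of the day 4 groups overlapped, and the difference of 0.78 ± 0.30 (SE) was not called (limma adjusted p = 0.0894), though without rhoGFP-positive replicate 1 it was 1.07 and was called (limma adjusted p = 0.0222). Each rhoGFP-positive array stood above the rhoGFP-negative array of the same number, and with the replicate number as a block the limma adjusted p was 0.000864, with the difference still below 2-fold. Against nestinGFP-positive cells Pdk2 was called higher, by 1.40 ± 0.30 (SE) (limma adjusted p = 0.00451). Pdk3 differed by -0.29 ± 0.15 (SE) and -0.54 ± 0.15 (SE) and was not called.

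None of the 3 measured genes of the enzyme itself was called. Pdha1 and Pdhb, the subunits of the first component, differed by -0.20 ± 0.11 (SE) and 0.49 ± 0.12 (SE), and Dlat, the core of the second, by 0.20 ± 0.15 (SE), below 2-fold (limma adjusted p = 0.258, 0.0160 and 0.435). The rhoGFP-positive arrays of Pdhb nevertheless lay above all others.

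In the pentose phosphate branch, which makes NADPH and ribose, none of the 3 measured genes was called against rhoGFP-negative cells. Tkt, transketolase, was at 11.57, 11.22 and 11.42 in rhoGFP-positive, 12.13, 12.21 and 12.32 in rhoGFP-negative and 12.79, 12.90 and 12.88 in nestinGFP-positive arrays, 3 groups without overlap. The difference was -0.82 ± 0.11 (SE) against rhoGFP-negative cells, below 2-fold (limma adjusted p = 0.000572), and -1.45 ± 0.11 (SE) against nestinGFP-positive cells, called lower (limma adjusted p = 1.13e-05). Pgd, the second NADPH-yielding enzyme, and Taldo1, transaldolase, differed by -0.21 ± 0.10 (SE) and 0.043 ± 0.12 (SE) (limma adjusted p = 0.184 and 0.858). In the glycogen branch Gbe1, the branching enzyme, was called lower against rhoGFP-negative cells at -1.10 ± 0.34 (SE) (limma adjusted p = 0.0407), with arrays of 7.34, 6.21 and 6.19 against 8.04, 7.42 and 7.59, and the call was lost on leaving out rhoGFP-positive replicate 2 or 3, any rhoGFP-negative array or nestinGFP-positive replicate 2, with limma adjusted p up to 0.148. Against nestinGFP-positive cells Gbe1 differed by -0.87 ± 0.34 (SE) and was not called, but it was without rhoGFP-positive replicate 1 (-1.25) or nestinGFP-positive replicate 3 (-1.14). Gys1, glycogen synthase, and Pygb and Pygm, the brain- and muscle-type phosphorylases, differed by -0.46 ± 0.21 (SE), 0.35 ± 0.11 (SE) and 0.27 ± 0.23 (SE) and were not called.

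**Figure D2:**
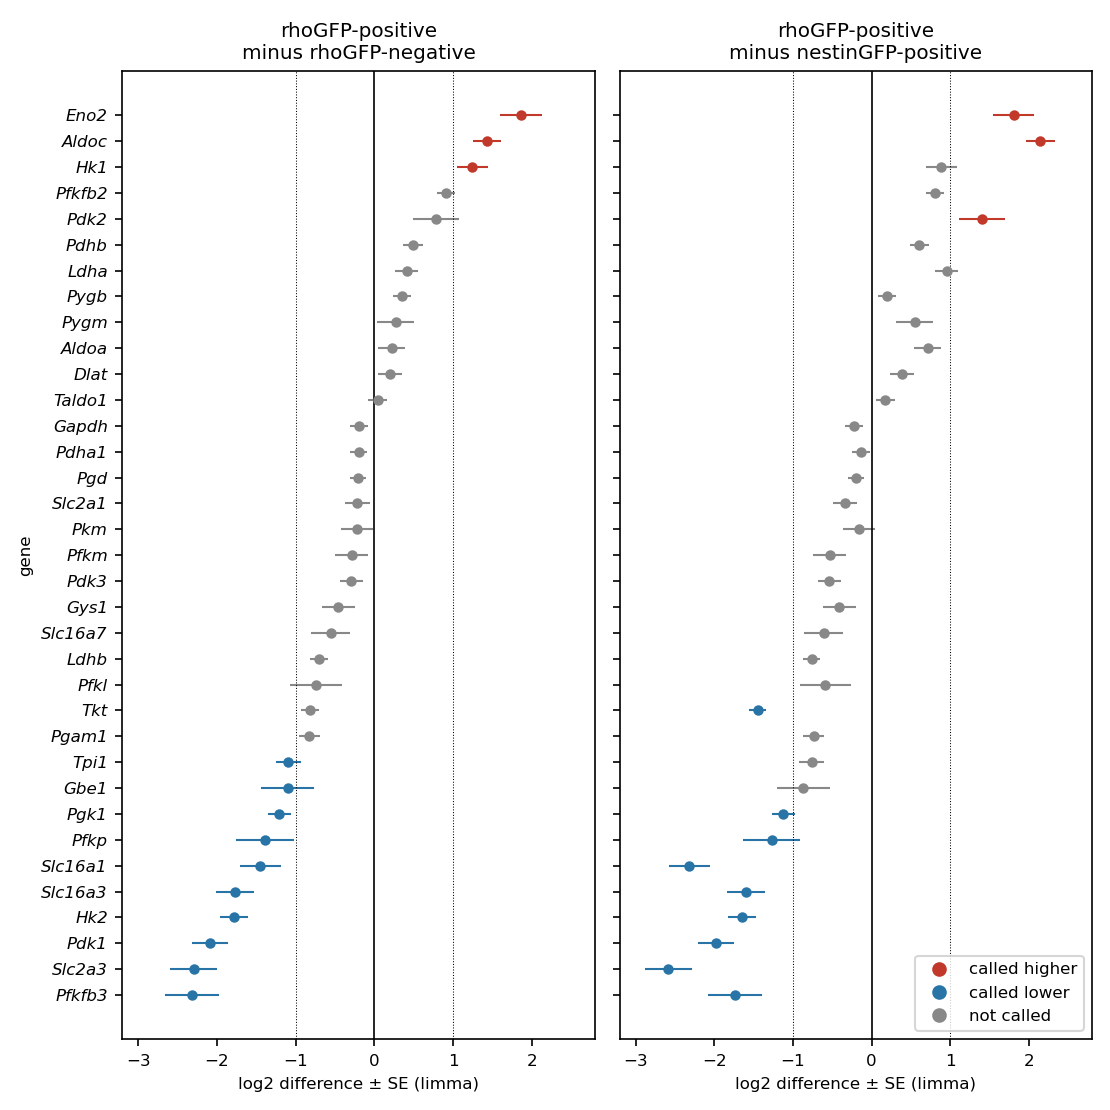
Log2 difference (x axis) of each measured gene (y axis) in rhoGFP-positive against rhoGFP-negative cells (left) and against nestinGFP-positive cells (right), with the limma standard error as a bar; red points were called higher, blue lower and grey not called. On the left the points run from -2.32 for Pfkfb3 to 1.87 for Eno2, and on the right from -2.58 for Slc2a3 to 2.14 for Aldoc.

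Over the 22 genes not called against rhoGFP-negative cells, differences ran from -0.83 (Pgam1) to 0.91 (Pfkfb2). Of these, 6 had limma adjusted p below 0.05 without reaching 2-fold. Over all 18194 genes 1830 were higher and 2587 lower at that p, of which 656 and 1332 reached 2-fold. Same-numbered arrays of the day 4 groups deviated together. With the replicate number as a block over all 9 arrays, the nestinGFP-positive ones included, Pdk2 (limma adjusted p = 0.000864), Pfkl (0.0117), Gys1 (0.0129) and Ldha (0.0389) were below 0.05 as well. The share of all genes below 0.05 with the block was not taken. Against nestinGFP-positive cells 3 of the 35 genes were called higher (Aldoc, Eno2 and Pdk2; 5.06% of all genes were) and 9 lower (Slc2a3, Hk2, Pfkp, Pfkfb3, Pgk1, Slc16a1, Slc16a3, Pdk1 and Tkt; 10.5% of all). The median difference over the 35 was -0.41, against 0.064 over all genes. The arrays did not overlap for 27 of the 35 genes, where 24.4% of all genes lay wholly above and 23.4% wholly below. Both comparisons share the 3 rhoGFP-positive arrays, so their values stand side by side above and are not independent of each other. The second comparison also differs in age and in reporter line.

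The comparison without that shared group set rhoGFP-negative against nestinGFP-positive cells. None of the 35 genes was called with limma, where 0.385% of all genes were called higher and 0.605% lower. At an unadjusted limma p below 0.05 there were 5, a count not read further since the share of all genes at that threshold was not taken. Whether same-numbered arrays pair is not settled here, so a fit with the replicate number as a block is given as an alternative. With it the calls over all genes went from 70 higher and 110 lower to 132 and 321, and those among the 35 stayed at 0. The median difference was 0.082, against 0.034 over all genes, and the differences ran from -0.87 (Slc16a1) to 0.71 (Aldoc). The arrays did not overlap for 6 of the 35 genes, where 11.8% of all genes lay wholly above and 8.79% wholly below. Of these 6, Tkt differed by -0.63 ± 0.11 (SE) with a limma adjusted p of 0.0289, and did not reach 2-fold. Slc16a1, Aldoc, Ldha, Aldoa and Tpi1 differed by -0.87 ± 0.26 (SE), 0.71 ± 0.18 (SE), 0.54 ± 0.15 (SE), 0.49 ± 0.18 (SE) and 0.33 ± 0.16 (SE), with limma adjusted p from 0.0774 to 0.311. These p-values are from the fit without the block. With the block limma adjusted p was below 0.05 for 5 of the 35 genes, all below 2-fold: Tkt (0.00843), Pdk2 (0.0129), Aldoc (0.0272), Ldha (0.0310) and Slc16a1 (0.0422). The share of all genes below 0.05 in that fit was not taken. For Slc16a1 the call turned to lower without rhoGFP-negative replicate 3, at -1.12 (limma adjusted p = 0.0314). For Hk2, Pdk1, Slc16a3 and Eno2 the arrays of these groups overlapped.

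**Figure D3:**
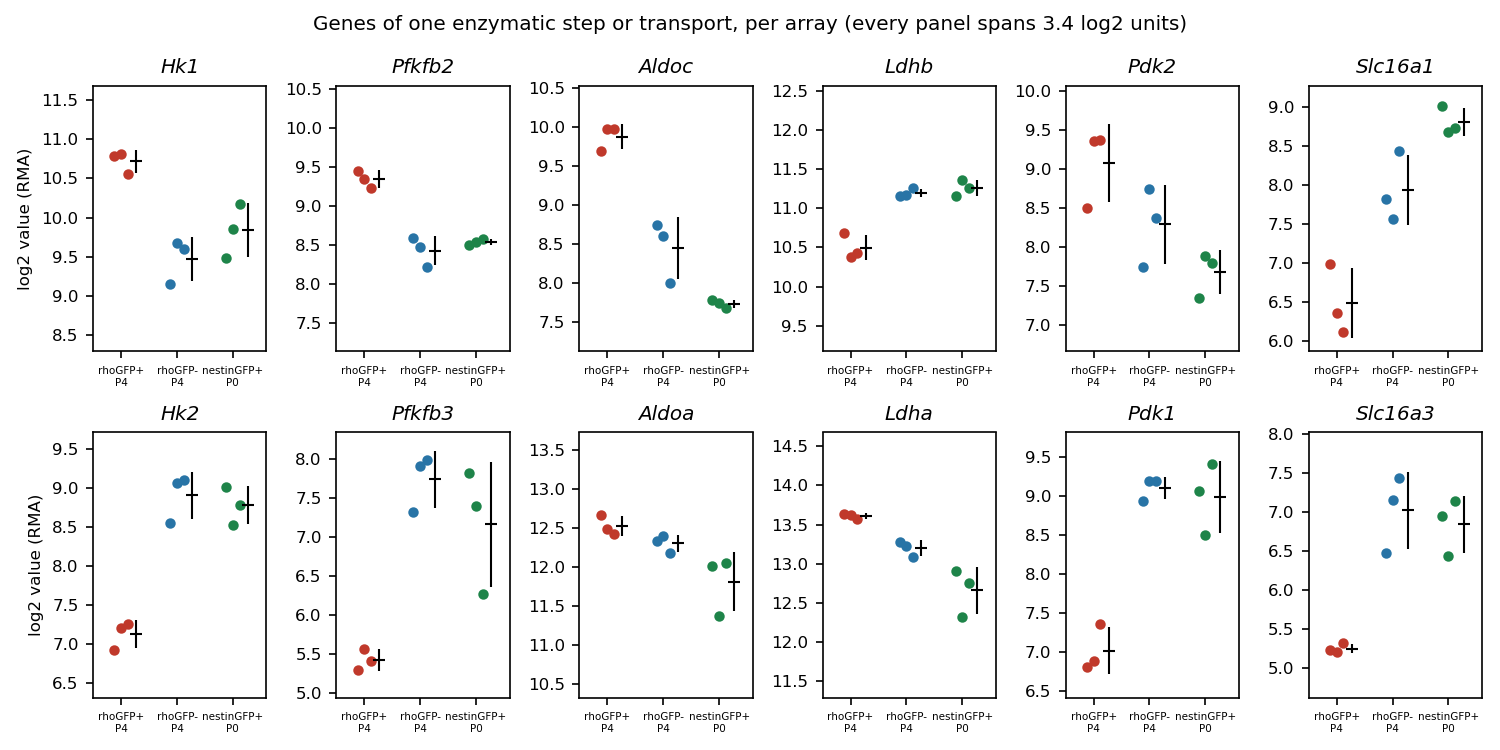
Level of genes that share a step, by array: each panel gives the log2 value (y axis, 3.4 units in every panel) of 1 gene on the 3 arrays of each of 3 groups (x axis), with a bar for the mean ± SD. The rhoGFP-positive arrays stand highest for Hk1, Pfkfb2 and Aldoc and lowest for Hk2, Pfkfb3 and Pdk1, while those of Pdk2 overlap with the rhoGFP-negative arrays.

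To describe the choice between genes of one step directly, the log2 difference between them was taken on each array and compared between groups. The pairs, like the genes, were chosen with earlier results of these data known. Of 16 pairs 15 could be measured, Eno2 with Eno1 being the exception, which gave 45 tests over the 3 comparisons. The absolute value of such a difference depends on the probes, and only its shift between groups is read. The permutation test did not pair arrays by number. With 3 arrays against 3 the smallest p an exact permutation test (two-sided) can give is 0.1, and every pair whose arrays did not overlap had that p, 0.1875 after Benjamini-Hochberg adjustment over the 45 tests, so none could pass 0.05. The arrays did not overlap for 10 pairs between rhoGFP-positive and rhoGFP-negative cells, for 10 between rhoGFP-positive and nestinGFP-positive cells and for 4 between the other groups. Among all single genes 17.9% lay wholly above and 20.3% wholly below, 24.4% and 23.4%, and 11.8% and 8.79% in the same order. No count was made over other pairs of genes, so the pair counts have no share of their own kind beside them.

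A wide shift against rhoGFP-negative cells lay in the control of phosphofructokinase, where Pfkfb2 over Pfkfb3 stood 3.23 log2 units higher in rhoGFP-positive cells, 9.38-fold. The per-array contrasts ran from 3.78 to 4.17 in rhoGFP-positive and from 0.24 to 1.27 in rhoGFP-negative arrays. With the mean of all probe sets, dim ones included, this shift was 1.64. Pfkfb3 itself was low in rhoGFP-positive arrays, at 5.29, 5.57 and 5.41, where the median over all probe sets averaged 6.11. The size of the shift thus rests in part on low values. Hk1 over Hk2 shifted by 3.03 (3.03 with the mean of all probe sets), with arrays from 3.31 to 3.87 against 0.51 to 0.61. Pdk2 over Pdk1 shifted by 2.87 (7.32-fold, and 2.43 log2 units with the mean of all probe sets), with arrays from 1.68 to 2.47 against -1.19 to -0.44. These 3 steps, glucose trapping, fructose 2,6-bisphosphate and the brake on pyruvate dehydrogenase, each pair a gene that was called lower with a partner whose difference was above 0; of the partners only Hk1 was called. Against nestinGFP-positive cells the contrasts of Pfkfb2, Hk1 and Pdk2 over their partners shifted by 2.54, 2.53 and 3.38, and by 1.40, 2.47 and 3.00 with the mean of all probe sets.

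Smaller shifts lay at other steps. Aldoc over Aldoa shifted by 1.21 against rhoGFP-negative and 1.43 against nestinGFP-positive cells, and by 0.58 and 0.49 with the mean of all probe sets. Ldhb over Ldha shifted down, by -1.11 and -1.72, and by -0.60 between rhoGFP-negative and nestinGFP-positive cells, the last of which was -0.385 without nestinGFP-positive replicate 2. Pdk3 over Pdk1 shifted by 1.79 and 1.43, although Pdk3 itself differed by -0.29 and -0.54 and was not called. Pdk3 over Pdk2 shifted by -1.94 against nestinGFP-positive cells and by -0.87 between the other groups. Pfkm over Pfkp shifted by 1.10 against rhoGFP-negative cells (0.67 with the mean of all probe sets), with Pfkm itself at -0.29 and not called. Pfkp over Pfkl shifted by -0.65 and -0.68. Among the lactate transporters Slc16a1 over Slc16a3 shifted by -1.05 between rhoGFP-negative and nestinGFP-positive cells, and by -0.70 with the mean of all probe sets. Slc16a7 over Slc16a1 is among the pairs counted as not overlapping, but Slc16a7 was too dim for its contrasts to be read as a choice between genes. Slc2a1 over Slc2a3 shifted by 2.08 and 2.24, which became 0.87 and 0.81 with the mean of all probe sets and turned to -0.074 and -0.20 without the _x_at and _s_at probe sets.

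**Figure D4:**
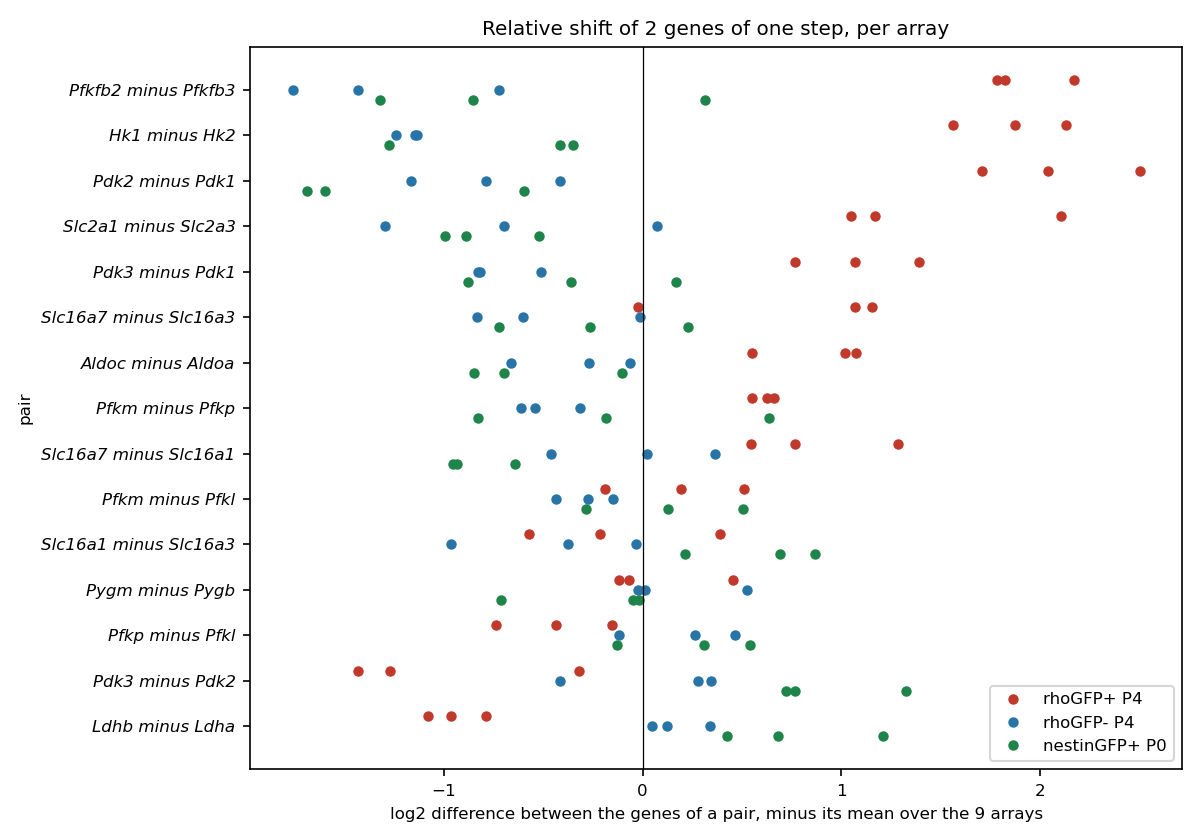
Log2 difference between the 2 genes of each pair on each array, minus the pair's mean over the 9 arrays (x axis), for 15 pairs (y axis); each point is 1 array, coloured by group. The rhoGFP-positive arrays stand apart on the right for Pfkfb2 over Pfkfb3, Hk1 over Hk2 and Pdk2 over Pdk1, and on the left for Ldhb over Ldha.

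The 35 genes were read by 77 probe sets, 21 genes by several and 14 by 1, and 6 genes were represented by a set ending in _x_at or _s_at. Among genes with several bright sets, both Hk1 sets were called higher at 1.24 and 1.25 against rhoGFP-negative cells, and the 3 Tkt sets were all called lower against nestinGFP-positive cells, while the Pfkl sets differed in sign. For Slc2a3, Pfkfb3, Aldoc and Slc16a1 a bright set was called and a dim one was not. The dim Slc16a1 set had a mean of 4.42 and a difference of 0.11 against rhoGFP-negative cells.

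**Figure D5:**
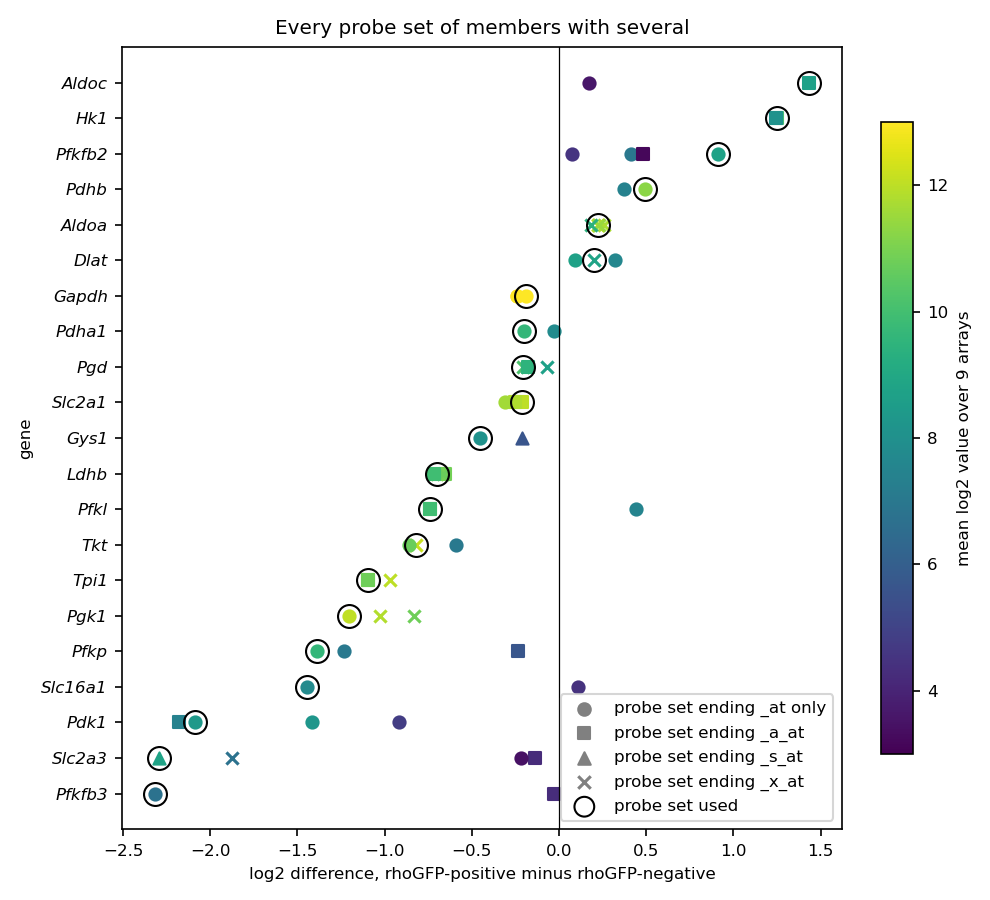
Log2 difference between rhoGFP-positive and rhoGFP-negative cells (x axis) for every probe set of the genes that had several (y axis); colour gives the set's mean log2 value over the 9 arrays, the symbol the kind of set, and a ring the set used. The 4 Ldhb sets and the 3 Tpi1 sets lie close together, and the dim sets of Slc2a3 and Pfkfb3 lie near 0.

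Around these genes, 65 of 72 other genes in or linked to the same pathways were measured. Among the 65 were 8 that are not pathway enzymes or carriers, listed as regulators, Hif1a, Epas1, Nxnl1 and Nxnl2 included. Against rhoGFP-negative cells 4 were called higher (6.15%, where 3.61% of all genes were) and 5 lower (7.69%, where 7.32% were), with a median difference of -0.074. Against nestinGFP-positive cells there were again 4 higher and 5 lower, where 5.06% and 10.5% of all genes were. The largest among those called higher were Nxnl2 and Nxnl1, which encode the rod-derived cone viability factors, of which the Nxnl1 product is known to bind basigin: Nxnl1 was higher by 2.13 ± 0.20 (SE) and Nxnl2 by 3.09 ± 0.20 (SE) against rhoGFP-negative cells (limma adjusted p = 4.96e-05 and 7.43e-06). Against nestinGFP-positive cells they were higher by 2.84 ± 0.20 (SE) and 3.75 ± 0.20 (SE). The third called higher in each comparison by size was Eno3, the muscle enolase, at 1.20 ± 0.36 (SE) against rhoGFP-negative cells, and Pgm1, a phosphoglucomutase, at 1.38 ± 0.18 (SE) against nestinGFP-positive cells. Tigar, a fructose 2,6-bisphosphatase, was higher by 1.07 ± 0.18 (SE) and 1.23 ± 0.18 (SE).

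The genes called lower among them included Hkdc1, a hexokinase-like gene, at -2.19 ± 0.22 (SE) and -2.38 ± 0.22 (SE) in the respective comparisons, and Gyg, glycogenin, which starts the glycogen chain, at -1.62 ± 0.20 (SE) and -1.96 ± 0.20 (SE). Pgm2, a second phosphoglucomutase, was lower against rhoGFP-negative cells at -1.09 ± 0.14 (SE), and Pcx, pyruvate carboxylase, against nestinGFP-positive cells at -1.41 ± 0.29 (SE). Of the genes for hypoxia-inducible factors, Epas1 was lower at -1.68 ± 0.42 (SE) and -1.39 ± 0.42 (SE) (limma adjusted p = 0.0147 and 0.0262), while Hif1a differed by 0.15 ± 0.16 (SE) and 0.44 ± 0.16 (SE) and was not called.

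Markers of other cell types moved with the same comparisons. The summed linear signal of 11 progenitor genes was 3185 to 6100 in rhoGFP-positive, 13719 to 27119 in rhoGFP-negative and 31318 to 34388 in nestinGFP-positive arrays, with a difference of -2.28 ± 0.29 (SE) for Sox2 against rhoGFP-negative cells. That of 9 endothelial and mural genes was 768 to 1024, 3184 to 4614 and 3890 to 4695, and that list was split: Kdr, Cldn5, Col4a1 and Col4a2 were called lower against rhoGFP-negative cells (-2.44, -1.55, -2.03 and -1.68), while Cdh5, Pecam1, Tek, Pdgfrb and Rgs5 were not (0.0083, 0.10, 0.058, -0.20 and 0.045). The 4 were named after their values were seen, and the median difference over the 9 was -0.20. Müller glia and astrocyte genes, with 5 of 9 called lower, summed to 1414 to 2015, 5263 to 7539 and 6504 to 7716, and amacrine and ganglion cell genes, with 8 of 9 called lower, to 1112 to 1869, 5048 to 9734 and 10592 to 14114. Microglial genes (7) summed to 331 to 942, 328 to 451 and 231 to 336, and Aif1 among them differed by 0.34 ± 0.22 (SE) (limma adjusted p = 0.341). Erythrocyte genes (3) summed to 82 to 93, 99 to 127 and 62 to 89. Of 8 cone genes 1 was called higher against rhoGFP-negative and 4 against nestinGFP-positive cells. Of 6 pigment epithelium genes 1 was called higher against rhoGFP-negative cells, and 1 higher and 1 lower against nestinGFP-positive cells. The summed signal of 11 rod genes was 51041 to 57241, 10001 to 15766 and 3435 to 8903. The part of these cell types in the values of Hk2, Pdk1, Slc16a1, Slc16a3 and the other genes called was not tested.

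RNA quality was read from the control probe sets. The actin 3′ minus 5′ difference was 0.85 to 0.97 in rhoGFP-positive, 0.64 to 0.68 in rhoGFP-negative and 0.40 to 0.99 in nestinGFP-positive arrays, so the day 4 groups did not overlap (exact permutation p = 0.1, two-sided, the smallest possible). The Gapdh 3′ minus 5′ difference overlapped between all groups. The 18S signal was high on the replicate 1 array of every group, at 12.1 to 13.6 against 9.65 to 10.4 on the other 6 arrays. Leaving those 3 arrays out kept 12 of the 13 calls against rhoGFP-negative cells. The actin gap between the day 4 groups remains without them, so its part in the results was not tested.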

How the data were processed

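RNA of 9 pooled samples, 3 in each of 3 groups, was measured on Affymetrix arrays. The deposited values are on the log2 scale and were made by the authors with RMA (no version stated), according to the submitters' processing notes, per the labels; the method subtracts background, brings the arrays to one distribution and understates folds of dim genes. The number of arrays limits the precision, and values of every array were used. Of 45101 probe sets, 34958 had 1 symbol, 932 several and the rest none in the platform annotation. Only the first were named, Pkm by its alias.

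One limma fit (version 3.58.1, R 4.3.3) of all 9 arrays, without a block, gave the differences and their tests wherever no other setting is named. Benjamini-Hochberg adjustment was over 18194 genes. That fit does not use the pairing of the day 4 groups described below, so genes whose adjusted p fell below 0.05 with the block are named in the Results. The procedure was run on simulated data with independent arrays and no replicate effect, which does not cover such pairing. The genes, lists and pairs were chosen with earlier results of these data known. All 38 genes could be named, and of the 72 others the 3 largest called differences each way per comparison, any list with 5 or fewer calls, Bsg, Hif1a and Nxnl1, with a few defining cell type markers. Figures used matplotlib 3.10.9.

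Replicate numbers come from the labels, which do not say whether a number marks a shared pool or sort. For rhoGFP-positive with rhoGFP-negative cells same-numbered arrays deviated together (correlations 0.45 to 0.62, unlike numbers -0.49 to 0.074) and were taken to pair. For rhoGFP-negative with nestinGFP-positive cells same numbers (0.15 to 0.54) overlapped with unlike ones (-0.39 to 0.22), so a pairing is not settled. For rhoGFP-positive with nestinGFP-positive cells (-0.0081 to 0.52, unlike numbers -0.45 to 0.39) none was taken. The limma block was fitted over all 9 arrays and so spans all 3 groups. Alternatives were other probe sets, normalisations, filters, thresholds, fits and the arrays left out.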

Additional observations from a re-analysis of the deposited data

How the results depend on the processing

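Across the alternatives, 7 of the 13 calls against rhoGFP-negative cells (Hk1, Hk2, Pfkfb3, Pgk1, Eno2, Slc16a3 and Pdk1) and 8 of the 12 against nestinGFP-positive cells (Hk2, Aldoc, Eno2, Slc16a1, Slc16a3, Pdk1, Pdk2 and Tkt) held in all 19 settings tried. The replicate block changed no count of calls at the 2-fold minimum among the 35 genes, which stayed at 3 higher and 10 lower, 3 and 9, and 0. Over all genes between rhoGFP-negative and nestinGFP-positive cells the block gave 132 higher and 321 lower, against 70 and 110 without it, a fit of only the 6 arrays gave 13 and 15, an adjusted p below 0.01 gave 10 and 13, and leaving out single arrays gave 8 to 145 and 11 to 414. Leaving out single arrays also gave 0 to 1 of the 35 genes lower there. With no 2-fold minimum 1830 genes were higher and 2587 lower against rhoGFP-negative cells, 2906 and 3602 against nestinGFP-positive cells, and 173 and 197 in the third comparison; among the 35 genes 6 higher and 13 lower, 8 and 13, and 0 and 1 were then called in these comparisons. Calls against rhoGFP-negative cells lost with the mean over probe sets were Pfkp (-0.95), Aldoc (0.80) and Slc16a1 (-0.67), and against nestinGFP-positive cells Pfkp (-0.74), Pfkfb3 (-0.91) and Pgk1 (-0.93). Without the replicate 1 arrays Pfkp had limma adjusted p of 0.0828 and 0.0768. Without the _x_at and _s_at probe sets Slc2a3 had a difference of -0.14 in both comparisons of rhoGFP-positive cells, with limma adjusted p of 0.384 and 0.291, and Slc2a1 over Slc2a3 turned to -0.0737 and -0.200. Ldha became a call against nestinGFP-positive cells by cyclic loess (1.05). Uncalled genes near 0 that changed sign were Taldo1 against rhoGFP-negative cells (-0.0459 without the replicate 1 arrays, and -0.0054 to 0.0992 on leaving out single arrays) and Pkm against nestinGFP-positive cells (-0.248 to 0.0040 on leaving out single arrays). The causes were not tested.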
